A study of Mus musculus with 10 samples.

Results

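The genes described here are those of fatty acid oxidation, ketone body formation and the targets of PPARA in the liver. They were chosen as a fixed list of 33 gene symbols, matched to the Ensembl identifiers of the count table through GENCODE on GRCm38. The rule itself uses no measured value, but the list was chosen with earlier results of these data known. Of the 33, 32 were measured among the 12148 genes of the table, and *Fgf21*, a fasting hormone made by the liver, was absent from it. They comprised 14 genes of mitochondrial beta-oxidation, 5 of peroxisomal beta-oxidation, 2 ketone body enzymes, 4 acyl-CoA thioesterases, 3 genes of fatty acid uptake and activation, and 5 genes of fuel choice and secreted signals listed with the PPARA targets.

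The livers came from wild-type C57BL6 mice raised germ-free (GF), that is, without any microbes. Of 10 mice, 5 received microbiota-derived extracellular vesicles, isolated from the gut contents of control mice with a normal microbiota, repeatedly by mouth over several weeks (GF+MEV), and 5 received the PBS vehicle alone (GF+PBS). RNA of each liver was sequenced as 1 library, in 1 experiment. The study asked how vesicles without living bacteria alter liver metabolism. The age and sex of the germ-free mice and the hour of liver collection were not given in the sources used here. All animals lacked living bacteria, so a liver of a conventionally colonised mouse was not part of the comparison. No source stated that the mice of a group came from separate cages or litters, so the p-values measure only the spread between these livers.

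In the liver, fatty acids released from fat tissue are activated to acyl-CoA and either stored or burned. Long-chain acyl-CoA enters mitochondria through the carnitine shuttle and is shortened there by repeated rounds of dehydrogenation, hydration, a second dehydrogenation and thiolytic cleavage, and the acetyl-CoA formed can be turned into ketone bodies. Peroxisomes carry out a related cycle on very long and branched chains. PPARA, a nuclear receptor that binds fatty acids and pairs with RXR on DNA, raises transcription of many of these enzymes in fasting, and the coactivator PGC-1alpha acts with it.

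Libraries held 15746119 to 20523649 counts on genes, of which the 32 genes took 1.5% to 1.84%. Values are given as CPM, counts scaled to library size by the TMM method, and livers are named by group and replicate number. The hepatocyte markers summed to 95250 to 114682 CPM in GF+MEV livers and 99122 to 115687 CPM in GF+PBS livers, and 2 of 8 rose (*Cps1* and *Hnf4a*). GF+PBS 1 and GF+PBS 3 lay close to each other over the 32 genes, with a root mean square difference of 0.167 on the log2 scale, as did GF+PBS 4 and GF+PBS 5 with 0.161. Between 0.287 and 0.567 separated the 8 remaining GF+PBS pairs, and 0.285 to 0.784 the 10 GF+MEV pairs. Calls that were lost when these alike livers were summed, or when GF+PBS 1 and 3 were left out, are given beside their values. Over all genes, GF+MEV 2 stood apart from its group, with a chi-square per gene of 135 to 176 against the other GF+MEV livers, which differed among themselves by 8.22 to 21.4, and with a TMM factor of 0.890. Without it, 2 of the 32 genes were called higher and 1 lower, and the calls of *Cd36* and *Creg1* were lost. Over all genes tested, 449 were called higher and 337 lower without it, and 500 and 428 with all livers.

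Of the 32 genes, 5 differed between GF+MEV and GF+PBS livers, beside 7.64% of all genes tested. *Angptl4*, a secreted inhibitor of lipoprotein lipase, rose 2.77-fold, and *Eci2*, a peroxisomal enoyl-CoA isomerase, rose 1.19-fold. *Acaa1b*, a peroxisomal thiolase, fell to 0.80 of its GF+PBS level, *Creg1* fell to 0.81 and *Cd36*, a fatty acid uptake protein, fell to 0.76. The other 27 did not pass the test, which was edgeR's quasi-likelihood test with Benjamini-Hochberg adjustment over all 12147 genes tested and a threshold of 0.05. None of the 14 mitochondrial genes passed it, 2 of them had an unadjusted p under 0.05, and DESeq2 called 1, *Cpt1a*. Over all 12147 genes tested, 2572 had such a p by edgeR and DESeq2 called 1201.

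For the 32 genes this was 2 called higher and 3 called lower, beside 4.12% of all genes tested called higher and 3.52% called lower. By DESeq2, 6 of the 32 were called, beside 1201 of all 12147 genes tested. By edgeR, 9 of the 32 had an unadjusted p under 0.05, beside 2572 of the 12147. The groups did not overlap for 2 genes that were higher and 2 that were lower in GF+MEV, where 3.94% and 3.45% of all genes tested had such a gap. The median log2 fold change of the 32 was -0.05, with 13 positive and 19 negative values, beside -0.0037 over all genes. An exact two-sided permutation test of 5 livers against 5 runs over 252 labelings and cannot give less than 0.00794. It gave 0.00794 for *Angptl4*, *Acaa1b*, *Eci2* and *Creg1*, and 0.0238 for *Cd36*, among 32 such tests without adjustment.

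**Figure D1:**
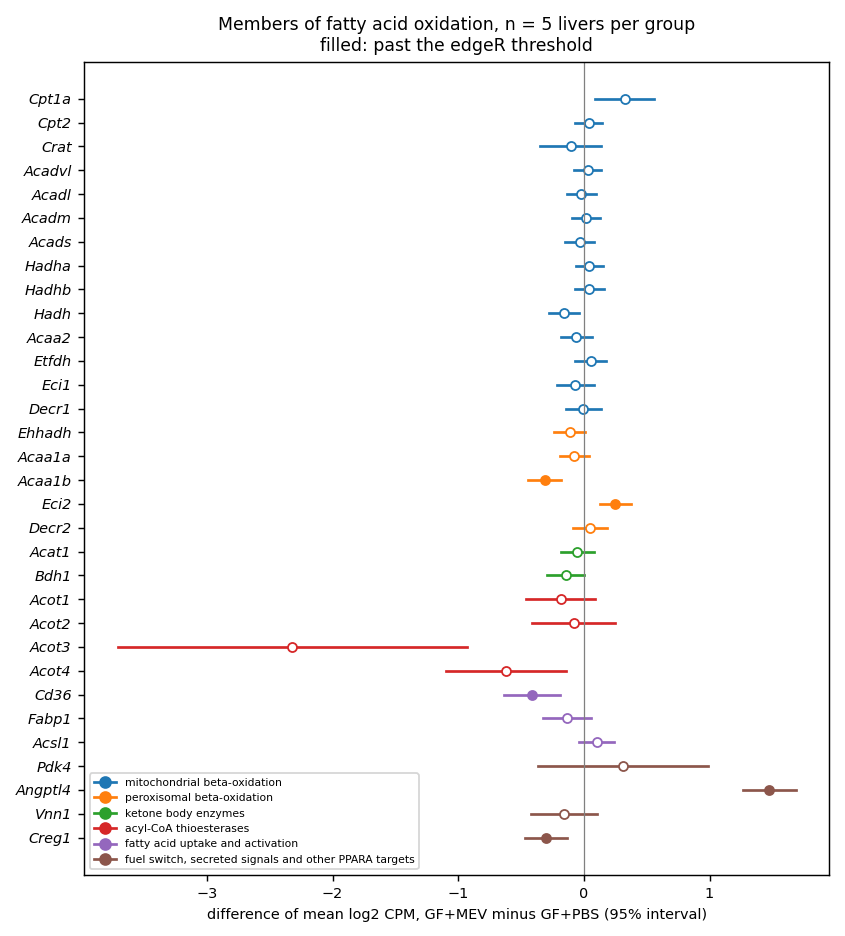
Difference of mean log2 CPM, GF+MEV minus GF+PBS, with its 95% limma interval (horizontal axis) for each of the 32 genes (vertical axis), coloured by role and filled where the edgeR test was passed (n = 5 livers per group). *Angptl4* stands at 1.48, the wide interval belongs to *Acot3*, and most mitochondrial genes lie near 0.

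*Angptl4* (ENSMUSG00000002289, chr17:33773750-33781830 of GRCm38, minus strand) had 195, 201, 185, 160.3 and 180.0 CPM in GF+MEV 1 to 5. In GF+PBS 1 to 5 it had 58.8, 63.3, 55.9, 81.5 and 73.2 CPM. The lowest GF+MEV liver lay well above the highest GF+PBS liver. The means were 184 ± 15.6 CPM (SD, n = 5) and 66.5 ± 10.6 CPM (SD, n = 5), and the log2 fold change was 1.47 (SE, the standard error, 0.12, edgeR adjusted p = 2.78e-07). The 95% interval of the fold, from limma on log2 CPM, ran from 2.41 to 3.22. The call held under each of 18 alternatives, with log2 fold changes of 1.34 to 1.55 and adjusted p-values from 1.08e-41 to 1.72e-05.

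Of the other 3 measured genes of fuel choice and PPARA response, *Pdk4* and *Vnn1* did not pass the test and *Creg1* fell. *Pdk4*, a kinase that shuts off pyruvate dehydrogenase and is strongly induced in fasting, had 2.74, 12.3, 8.55, 9.04 and 7.77 CPM in GF+MEV 1 to 5. It had 3.72, 6.72, 6.78, 7.93 and 5.10 CPM in GF+PBS 1 to 5. The lowest of the 10 livers, GF+MEV 1, and the highest, GF+MEV 2, were both in the treated group, and the groups overlapped. With a log2 fold change of 0.41 (SE 0.41, edgeR adjusted p = 0.457) and a limma interval of -0.37 to 0.99, folds from 0.775 to 1.98 lay within the interval. *Vnn1*, a pantetheinase that PPARA induces, had 87.4, 103, 61.1, 69.7 and 98.4 CPM in GF+MEV 1 to 5, and 88.7, 104, 85.7, 88.1 and 95.1 CPM in GF+PBS 1 to 5. GF+MEV 3 and 4 lay below the GF+PBS livers and the others among them, and the log2 fold change was -0.14 (SE 0.15, edgeR adjusted p = 0.579).

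*Creg1*, which encodes a secreted and lysosomal glycoprotein (ENSMUSG00000040713, chr1:165763746-165775308, plus strand), had 444, 432, 374, 469.8 and 468 CPM in GF+MEV 1 to 5. Its GF+PBS values were 606, 491, 591, 515 and 500.5 CPM. The groups did not overlap, but GF+MEV 4 and GF+PBS 2 lay close together. GF+PBS 1 and 3 were the highest livers. Its log2 fold change was -0.30 (SE 0.09, edgeR adjusted p = 0.0289). The call held under 10 of 18 alternatives, whose adjusted p-values ran from 0.00601 to 0.176. It was lost without GF+MEV 1 (0.0553), GF+MEV 2 (0.0597), GF+MEV 3 (0.0644), GF+PBS 1 (0.0659) or GF+PBS 3 (0.0811), with a replicate block (0.0742), with the alike GF+PBS livers summed (0.118), and without GF+PBS 1 and 3 together (log2 fold change -0.20, edgeR adjusted p = 0.176).

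In peroxisomal beta-oxidation, 1 of 5 genes rose and 1 fell, beside 4.12% and 3.52% of all genes tested, and the median log2 fold change was -0.08. Under the 4 alternatives that ended the call of *Eci2*, 0 of the 5 rose. *Acaa1b* encodes a thiolase that cleaves the last bond of the cycle (ENSMUSG00000010651, chr9:119148023-119157093, minus strand). It had 2116, 2056, 1887, 1886 and 2102 CPM in GF+MEV 1 to 5, and 2593, 2340.4, 2571, 2634 and 2342 CPM in GF+PBS 1 to 5. All GF+MEV livers lay below all GF+PBS livers. For *Acaa1b* the log2 fold change was -0.31 (SE 0.05, edgeR adjusted p = 0.00565, limma interval -0.45 to -0.18), and the call held under each of the 18 alternatives (-0.36 to -0.28, adjusted p 2.01e-05 to 0.0457).

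*Acaa1a*, a paralog on the same chromosome (chr9:119339676-119350299, plus strand), carries out the same step. It had 379, 368, 360.5, 337 and 364 CPM in GF+MEV 1 to 5, and 392, 362, 370.4, 413 and 371 CPM in GF+PBS 1 to 5. The groups overlapped, and the log2 fold change was -0.08 (SE 0.04, edgeR adjusted p = 0.462). Of all stretches of 50 bases in the annotated transcripts, 30.5% of those of *Acaa1b* occur in *Acaa1a* and 12.9% of those of *Acaa1a* occur in other genes. Reads that lie wholly within such stretches match more than 1 gene, and their share was not measured. *Acaa1b* also overlaps *Dlec1* on the other strand by 224 bases, and the strand setting of the counting was not given in the sources used here.

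*Eci2* moves a double bond so that unsaturated chains can enter the cycle (ENSMUSG00000021417, chr13:34977748-35027096, minus strand). It had 235, 240.1, 216, 201 and 220.3 CPM in GF+MEV 1 to 5, and 188, 184, 177, 196 and 190.4 CPM in GF+PBS 1 to 5. The groups did not overlap, with GF+MEV 4 and GF+PBS 4 the closest. GF+MEV exceeded GF+PBS by a log2 fold change of 0.25 (SE 0.05, edgeR adjusted p = 0.0168). The call held under 14 of 18 alternatives, with adjusted p-values from 0.00132 to 0.0736. It was lost without GF+PBS 3 (0.0509), with a replicate block (0.0571), with the alike livers summed (0.0513), and without GF+PBS 1 and 3 (0.0736). *Eci2* overlaps *Gm16984* on the other strand by 189 bases. Of its 50-base stretches, 6.80% occur in other genes, among them *Gm15287* and *Eci3*.

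*Ehhadh*, the bifunctional enzyme that hydrates and oxidises the chain in peroxisomes, had 593, 593, 584, 539.9 and 651 CPM in GF+MEV 1 to 5. In GF+PBS 1 to 5 it had 643, 654, 684, 604 and 616 CPM. Only GF+MEV 5 reached the GF+PBS livers. For *Ehhadh* the log2 fold change was -0.11 (SE 0.05, edgeR adjusted p = 0.315). *Decr2*, a peroxisomal dienoyl-CoA reductase, had a log2 fold change of 0.05 (SE 0.06, edgeR adjusted p = 0.716).

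**Figure D2:**
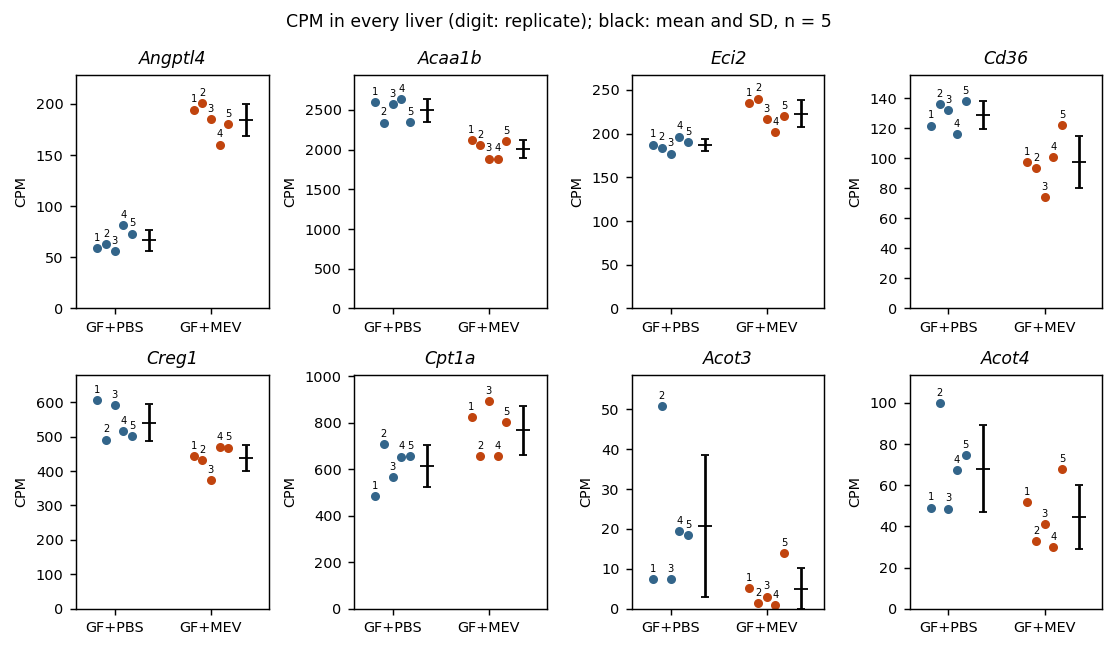
CPM (vertical axis, from 0) of single genes in every liver of GF+PBS and GF+MEV (horizontal axis), each digit being the replicate number, with the mean and SD in black (n = 5 per group; a bar that would pass below 0 ends there). The digits of *Angptl4*, *Acaa1b*, *Eci2* and *Creg1* do not overlap between groups, while those of *Cd36* do, with GF+MEV 5 at 122 CPM above GF+PBS 4 at 116 CPM.

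For the 14 mitochondrial genes the median log2 fold change was 0.0091, and single values ran from -0.16 to 0.32. *Cpt1a*, the outer membrane carnitine acyltransferase that controls entry of long chains (ENSMUSG00000024900, chr19:3322334-3385733, plus strand), had the highest of them. It had 826, 658, 895, 658 and 804 CPM in GF+MEV 1 to 5, and 484, 709, 567, 655 and 658 CPM in GF+PBS 1 to 5. GF+MEV 2 and 4 lay at the level of GF+PBS 4 and 5 and below GF+PBS 2, so the groups overlapped. The log2 fold change was 0.32 (SE 0.13, edgeR adjusted p = 0.0936), and an exact two-sided permutation test gave 0.0397. DESeq2 called it with an adjusted p of 0.0463, the other 17 alternatives did not, and the adjusted p-values ran from 0.0463 to 0.358. Without GF+PBS 1 and 3, the lowest controls, the log2 fold change was 0.19 (edgeR adjusted p = 0.358).

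The enzymes that act on the chain inside mitochondria showed small differences. *Acadm*, the medium-chain acyl-CoA dehydrogenase, had 350.3, 372, 326, 347 and 378 CPM in GF+MEV 1 to 5, and 366, 333, 349, 353 and 351 CPM in GF+PBS 1 to 5. *Hadha*, the alpha subunit of the trifunctional protein, had 480.5, 453, 443, 423 and 486 CPM in GF+MEV 1 to 5, and 437, 456, 440.0, 449 and 432 CPM in GF+PBS 1 to 5. For both, the GF+PBS livers lay within the range of the GF+MEV livers. Their log2 fold changes were 0.02 (SE 0.04, edgeR adjusted p = 0.906) and 0.05 (SE 0.04, edgeR adjusted p = 0.691).

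*Hadh*, the short-chain hydroxyacyl-CoA dehydrogenase, had 333, 334, 312, 317 and 373 CPM in GF+MEV 1 to 5, and 367, 368, 365, 392 and 373 CPM in GF+PBS 1 to 5. The first 4 GF+MEV livers lay below every GF+PBS liver, and GF+MEV 5 lay among them. Its log2 fold change was -0.16 (SE 0.05, edgeR adjusted p = 0.117), and the exact two-sided permutation test gave 0.0397. Without GF+MEV 5 it became -0.20 with an edgeR adjusted p of 0.0468, the lowest over the alternatives, which reached 0.291.

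The other 10 mitochondrial genes were *Cpt2* and *Crat* of the carnitine shuttle, *Acadvl*, *Acadl* and *Acads* for very long, long and short chains, *Hadhb*, *Acaa2* and *Etfdh*, and *Eci1* and *Decr1* for unsaturated chains. Their log2 fold changes ran from -0.11 (*Crat*, SE 0.14, edgeR adjusted p = 0.645) to 0.05 (*Etfdh*, SE 0.05, edgeR adjusted p = 0.678). For the 12 mitochondrial genes other than *Cpt1a* and *Crat*, the limma intervals lay between folds of 0.823 and 1.13, so a larger difference in either direction was outside the interval of each. The intervals of *Cpt1a* (0.09 to 0.56 on the log2 scale) and *Crat* (-0.35 to 0.13) were the widest of the mitochondrial genes. That of *Cpt1a* lay wholly on the positive side. Among the 12, that of *Hadh* (-0.28 to -0.04) lay wholly on the negative side. Neither *Cpt1a* nor *Hadh* passed the edgeR test. *Hadhb* shares 19.7% of its 50-base stretches with other genes, mainly *Gm13910*.

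**Figure D3:**
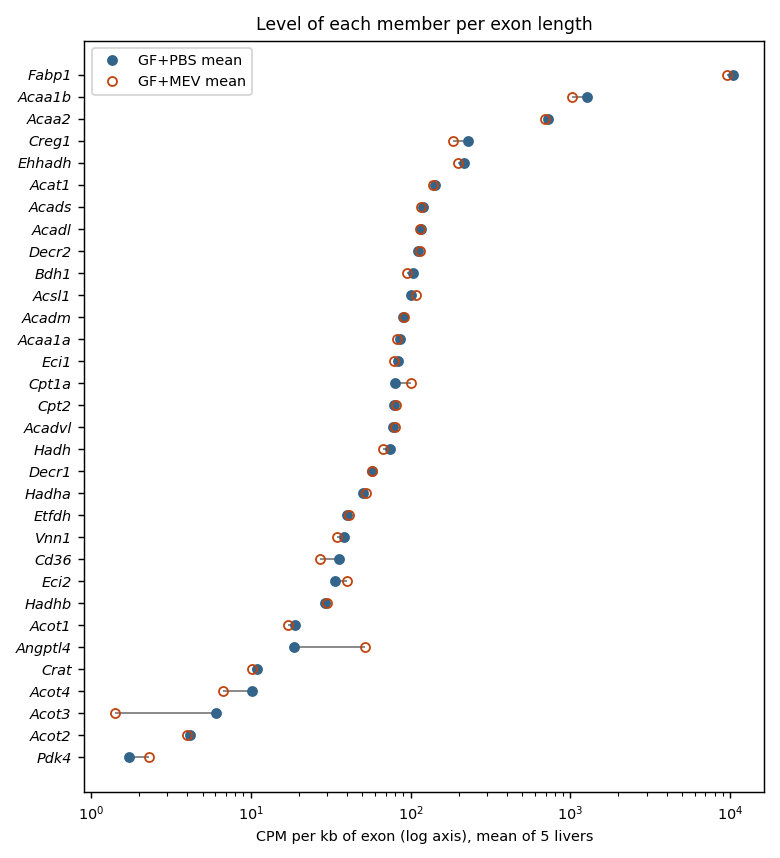
Mean level of each gene in CPM per kb of exon (horizontal log axis) in GF+PBS and GF+MEV livers (n = 5 per group), with genes in order on the vertical axis. *Fabp1* stands at 10491 in GF+PBS and 9601 in GF+MEV, *Acaa1b* at 1272 and 1024, *Cpt1a* at 80.4 and 101 and *Angptl4* at 18.8 and 52.0.

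Neither ketone body enzyme of the list passed the test, neither had an unadjusted p under 0.05, and DESeq2 called none. *Acat1*, the mitochondrial thiolase that forms acetoacetyl-CoA, had 493, 565, 467, 496 and 561 CPM in GF+MEV 1 to 5. In GF+PBS 1 to 5 it had 547, 520.3, 558, 529 and 517 CPM, all within the GF+MEV range. *Bdh1*, which reduces acetoacetate to beta-hydroxybutyrate, had 412, 352, 380.1, 310.4 and 381 CPM in GF+MEV 1 to 5, and 401, 401, 404.5, 427 and 388 CPM in GF+PBS 1 to 5. All but GF+MEV 1 lay below the GF+PBS livers. The log2 fold changes were -0.05 (SE 0.06, edgeR adjusted p = 0.727) and -0.14 (SE 0.07, edgeR adjusted p = 0.280).

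Acyl-CoA thioesterases release free fatty acid from acyl-CoA. Their 4 genes lie in 1 cluster on chromosome 12 of GRCm38, from the start of *Acot2* at 83987861 to the end of *Acot3* at 84060402, and all are read from the plus strand. None passed the test, 2 had an unadjusted p under 0.05, beside 2572 of all 12147 genes tested, and DESeq2 called 0. All 4 log2 fold changes were negative, with a median of -0.38. *Acot3*, a peroxisomal enzyme, varied most. It had 5.18, 1.38, 3.04, 0.842 and 14.01 CPM in GF+MEV 1 to 5, where the lowest library held 15 counts, and 7.39, 50.8, 7.44, 19.5 and 18.5 CPM in GF+PBS 1 to 5. GF+MEV 5 lay among the GF+PBS livers, and the other GF+MEV livers lay below them. For *Acot3* the log2 fold change was -2.10 (SE 0.86, edgeR adjusted p = 0.0584), and an exact two-sided permutation test gave 0.0317. Over the alternatives the log2 fold change ran from -2.97 to -1.45 and the edgeR or DESeq2 adjusted p from 0.00988 to 0.147, with 5 of 18 calling it. The calls came without GF+MEV 5 (-2.97, 0.00988), without GF+PBS 1 (-2.32, 0.0348), without GF+PBS 3 (-2.32, 0.0456), without both of the latter (-2.62, 0.0127), and with upper-quartile factors (-2.14, 0.0451).

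*Acot4*, which also acts in peroxisomes, had 51.7, 32.7, 41.0, 30.0 and 67.8 CPM in GF+MEV 1 to 5, and 49.2, 99.8, 48.7, 67.4 and 74.8 CPM in GF+PBS 1 to 5. Here too GF+PBS 2 was the highest and GF+PBS 1 and 3 were the lowest of the control livers. The log2 fold change was -0.61 (SE 0.29, edgeR adjusted p = 0.125). It passed the test without GF+MEV 5 (-0.80, adjusted p = 0.0339) and without GF+PBS 1 and 3 (-0.85, adjusted p = 0.0292), the lowest of a range that reached 0.256. *Acot1*, the cytosolic enzyme, had 74.1, 64.0, 67.4, 44.1 and 84.5 CPM in GF+MEV 1 to 5, and 78.2, 68.0, 77.7, 74.3 and 73.9 CPM in GF+PBS 1 to 5. The GF+MEV livers spread over more than the whole GF+PBS range, and the log2 fold change was -0.16 (SE 0.16, edgeR adjusted p = 0.526). *Acot2*, the mitochondrial enzyme, had a log2 fold change of -0.07 (SE 0.18, edgeR adjusted p = 0.848), which turned to 0.04 without GF+MEV 4 and to 0.01 without GF+PBS 4.

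In GF+MEV, the 5 livers stood in the same order for all 4 thioesterase genes, from replicate 5 as the highest through 1, 3 and 2 to 4. This order is a description of 5 livers. In GF+PBS the order differed between the genes, with replicate 1 the highest for *Acot1*, replicate 4 for *Acot2* and replicate 2 for *Acot3* and *Acot4*. The genes share sequence: 19.2% of the 50-base stretches of *Acot1*, 27.7% of *Acot2*, 19.1% of *Acot3* and 4.53% of *Acot4* occur in another gene. The share of reads that match more than 1 gene was not measured. *Acot3* and *Acot4* also overlap *Gm49366* on the same strand, by 396 and 33 bases. On the other strand they overlap *4732463B04Rik* by 312 and 615 bases.

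Of 3 genes of fatty acid uptake and activation, 1 fell, beside 3.52% of all genes tested. *Cd36*, a membrane protein that takes up long-chain fatty acids (ENSMUSG00000002944, chr5:17781690-17888801, minus strand), had 97.7, 93.3, 74.2, 101 and 122 CPM in GF+MEV 1 to 5. In GF+PBS 1 to 5 it had 122, 136, 132, 116 and 138 CPM. GF+MEV 5 lay above GF+PBS 4 and 1, so the groups overlapped. The log2 fold change was -0.40 (SE 0.13, edgeR adjusted p = 0.0275). The call held under 11 of 18 alternatives, with adjusted p-values from 0.00389 to 0.0807. It was lost without GF+MEV 1 (0.0564), GF+MEV 2 (0.0596), GF+PBS 2 (0.0517), GF+PBS 3 (0.0609) or GF+PBS 5 (0.0551), with the alike livers summed (0.0807), and without GF+PBS 1 and 3 together (0.0598).

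*Cd36* is also made by Kupffer cells, endothelial cells and adipocytes, and in bulk RNA fewer cells of a type and less RNA per cell cannot be told apart. The 8 Kupffer cell markers summed to 203 to 389 CPM in GF+MEV and 231 to 332 CPM in GF+PBS, none passed the edgeR test, none had an unadjusted p under 0.05 and DESeq2 called 0. The 7 endothelial markers summed to 136 to 217 CPM and 154 to 209 CPM, with *Lyve1* higher and *Clec4g* lower. Of 6 adipocyte markers only *Fabp4* was measured, at 9.94 to 15.7 CPM in GF+MEV and 8.13 to 32.6 CPM in GF+PBS. The other 5, with *Adipoq* and *Plin1*, were absent from the count table. The part of other cell types in the *Cd36* difference was not tested.

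*Fabp1*, the liver fatty acid binding protein, had 5709.6, 5900.0, 5189.8, 4316 and 5432 CPM in GF+MEV 1 to 5, and 6288, 5261, 5695, 6216 and 5548 CPM in GF+PBS 1 to 5. Per kb of exon it had the highest level of the 32 genes in both groups. GF+MEV 3 and 4 lay below the GF+PBS livers and the others among them, with a log2 fold change of -0.13 (SE 0.09, edgeR adjusted p = 0.415). *Acsl1*, which activates long-chain fatty acids to acyl-CoA, had 1244, 981, 1098, 1135 and 1177 CPM in GF+MEV 1 to 5, and 983, 1108, 1062, 1027 and 1063 CPM in GF+PBS 1 to 5. GF+MEV 1 was the highest and GF+MEV 2 the lowest of all 10 livers, and the log2 fold change was 0.10 (SE 0.06, edgeR adjusted p = 0.410).

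Livers differed in how these genes stood as a whole. GF+MEV 4 was the lowest liver of its group for 17 of the 32 genes (53.1%, beside 21% over all genes), and GF+MEV 3 for 11 (34.4%, beside 21.7%). GF+MEV 5 was the highest for 15 (46.9%, beside 16.6%) and the lowest for 0. In GF+PBS, replicate 4 was the highest for 14 (43.8%, beside 17.2%). The coefficient of variation over livers had a median of 8.62% in GF+MEV and 5.47% in GF+PBS, beside 10.6% and 10.9% over all genes. This measure depends on the count level of a gene, and genes of matched level were not compared. For the mitochondrial genes the medians were 5.88% and 3.64%, and for the thioesterases 28.5% and 23.5%. *Acot3* reached 109.8% and 85.8%, and *Pdk4* 42.6% and 27.2%. These genes share a library and its scaling within each liver, so they are not independent.

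**Figure D4:**
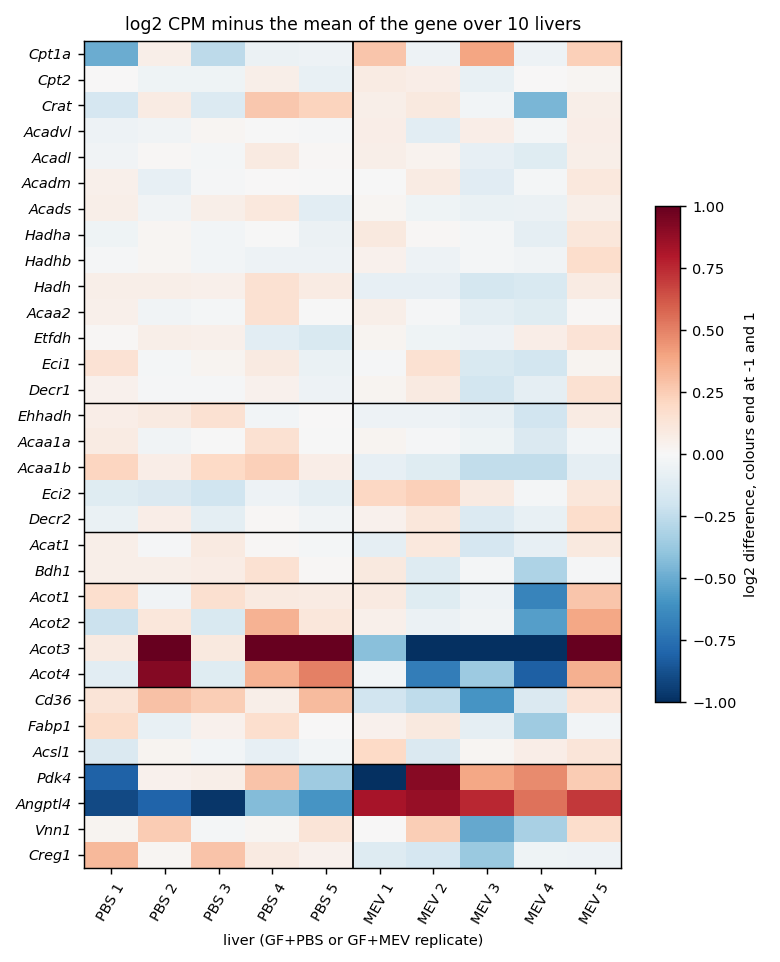
Log2 CPM minus the mean of the gene over 10 livers (colour, ending at -1 and 1) for each of the 32 genes (vertical axis) in each GF+PBS and GF+MEV liver (horizontal axis). The *Angptl4* stripe separates the groups, the thioesterase stripes differ within both groups, and most mitochondrial stripes stay pale.

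PPARA and RXR bind a direct repeat of AGGTCA with 1 base between its copies (DR1), and the letters AGGTCANAGGTCA (N, any base) were searched on both strands in the 250 bases before the start of each gene, in RefSeq promoters of GRCm38.p6. Of the 32 genes and *Fgf21*, 27 had a promoter in that table. *Angptl4*, *Vnn1*, *Crat*, *Acaa2*, *Decr1* and *Acat1* had none there and were not searched. No promoter of the 27 held the motif without a mismatch, while 0.041% of 27025 genes held it. With up to 1 mismatch it occurred in 1 (*Fabp1*), beside 0.566% of all genes, and with up to 2 in 4, beside 3.72%. The 4 matches are shown because *Creg1* and *Cd36* fell while *Fabp1* and *Acot4* did not pass the test. Each is printed along the gene's own strand, with 20 bases before it in lower case and, in capitals, the letters equal to the motif. The motif lies on the gene's strand in *Creg1* and on the opposite strand in the others.
Creg1, chr1:165763589-165763621: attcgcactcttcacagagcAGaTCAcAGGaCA
Cd36, chr5:17835947-17835979: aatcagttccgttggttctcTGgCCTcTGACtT
Fabp1, chr6:71199792-71199824: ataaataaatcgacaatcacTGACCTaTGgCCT
Acot4, chr12:84038346-84038378: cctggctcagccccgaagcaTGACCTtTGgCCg
The matches lie 137 to 149 bases before the start of *Creg1*, 51 to 63 before *Cd36*, 55 to 67 before *Fabp1* and 1 to 13 before *Acot4*. These distances are from the RefSeq starts. The RefSeq start of *Cd36* lies well inside the GENCODE span printed above, those of *Creg1* and *Fabp1* lie shortly after the GENCODE starts, and that of *Acot4* is the same. The glucocorticoid response element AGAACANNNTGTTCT with up to 2 mismatches was in 0 of the 27, beside 1.77% of all genes. A match describes letters in this window and not a bound site.

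Of 88 further genes of the pathway, fixed as lists of other enzymes, targets and regulators, 84 were tested. These lists too were chosen with earlier results of these data known. Of these, 9 rose and 3 fell, beside 4.12% and 3.52% of all genes tested, with a median log2 fold change of 0.04. DESeq2 called 16, and 27 had an unadjusted p under 0.05, beside 1201 and 2572 of all 12147 genes tested. By list, the regulators had 4 of 23 higher and 0 lower, further PPARA targets 2 of 23 higher and 1 lower, other peroxisomal genes 2 of 21 higher and 2 lower, and other mitochondrial genes 1 of 12 higher and 0 lower. None of 5 other ketone body genes passed the edgeR test, none had an unadjusted p under 0.05 and DESeq2 called 0.

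The regulators held the highest log2 fold change of the 84. *Lpin1*, a phosphatidate phosphatase that also acts as a coactivator of PPARA, had 433, 675, 609.6, 562 and 320.4 CPM in GF+MEV 1 to 5. In GF+PBS 1 to 5 it had 46.0, 72.8, 49.0, 74.6 and 81.5 CPM. Every GF+MEV liver was far above every GF+PBS liver, with a log2 fold change of 3.0 (SE 0.26, edgeR adjusted p = 3.54e-07). *Ppargc1a*, which encodes PGC-1alpha, had 20.8, 23.1, 19.6, 22.1 and 16.5 CPM in GF+MEV 1 to 5, and 5.77, 6.84, 6.72, 11.9 and 12.97 CPM in GF+PBS 1 to 5. The groups did not overlap, and the log2 fold change was 1.21 (SE 0.25, edgeR adjusted p = 0.00129). *Hnf4a*, a nuclear receptor that keeps hepatocyte identity, had 746, 682, 775, 698 and 696 CPM in GF+MEV 1 to 5, and 513, 559.6, 569.9, 489 and 498 CPM in GF+PBS 1 to 5. It rose by 0.45 on the log2 scale (SE 0.06, edgeR adjusted p = 0.000361) without overlap. These 3 calls held under all 18 alternatives.

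*Ppara* itself had 112, 109, 143, 124 and 143 CPM in GF+MEV 1 to 5, and 72.6, 160.2, 109.6, 110.1 and 141 CPM in GF+PBS 1 to 5. The GF+PBS livers spanned the whole range of the GF+MEV livers, and the log2 fold change was 0.09 (SE 0.21, edgeR adjusted p = 0.815). It turned to -0.04 without GF+PBS 1 and to -0.12 without GF+PBS 1 and 3. *Rxra*, its partner, had a log2 fold change of 0.25 (SE 0.09, edgeR adjusted p = 0.0778, 0.00979 to 0.310 over the alternatives). *Rxra* was called by DESeq2, without GF+MEV 2 and without GF+PBS 2. *Ppargc1b*, a relative of *Ppargc1a*, rose by 0.66 (SE 0.21, edgeR adjusted p = 0.0352) with overlapping groups, and its call was lost without GF+MEV 2, 3 or 5 and without GF+PBS 1, 2, 3 or 4. It was also lost with the alike livers summed (0.0544) and without GF+PBS 1 and 3 together (log2 fold change 0.47, edgeR adjusted p = 0.169).

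Of the 23 further PPARA targets, 20 did not pass the test. *Plin5*, a lipid droplet protein that couples droplets to mitochondria, had 88.8, 92.9, 96.3, 58.7 and 81.1 CPM in GF+MEV 1 to 5, and 40.4, 32.2, 36.5, 34.9 and 35.4 CPM in GF+PBS 1 to 5. The groups were far apart, with a log2 fold change of 1.22 (SE 0.14, edgeR adjusted p = 7.08e-06), and the call held under all 18 alternatives. *Pnpla2*, the main triglyceride lipase, rose by 0.29 (SE 0.10, edgeR adjusted p = 0.0461) with overlapping groups. Its call was lost without GF+MEV 1, 2, 3 or 5 and without GF+PBS 1, 2, 3 or 5. It was also lost with upper-quartile factors (0.0737), with a replicate block (0.0942), with the alike livers summed (0.0728), and without GF+PBS 1 and 3 together (log2 fold change 0.18, edgeR adjusted p = 0.210). *Aldh3a2*, a fatty aldehyde dehydrogenase, fell by 0.23 (SE 0.05, edgeR adjusted p = 0.0330) without overlap, and its call was lost without GF+MEV 1, 3 or 4, without GF+PBS 2, 3, 4 or 5, with a replicate block (0.0642) and with the alike livers summed (0.0922).

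The fatty acid omega-hydroxylases are among the most strongly induced PPARA targets of mouse liver. *Cyp4a10* had 699, 699.7, 599, 555 and 872 CPM in GF+MEV 1 to 5, and 745, 801, 725, 657 and 639.8 CPM in GF+PBS 1 to 5. *Cyp4a14* had 1138, 1128, 933, 708 and 1448 CPM in GF+MEV 1 to 5, and 1166, 1224, 1171, 1116 and 1114 CPM in GF+PBS 1 to 5. For both, GF+MEV 5 was the highest and GF+MEV 4 the lowest of all 10 livers. The log2 fold changes were -0.06 (SE 0.13, edgeR adjusted p = 0.808) and -0.11 (SE 0.17, edgeR adjusted p = 0.696), and they turned to 0.0071 and 0.0041 without GF+MEV 4. Only 2 other *Cyp4a* genes were on the list, and they are named after their values were seen. Of these, *Cyp4a32* had 58.8 to 81.3 CPM in GF+MEV and 48.6 to 58.4 CPM in GF+PBS, without overlap. Its log2 fold change was 0.27 (SE 0.10, edgeR adjusted p = 0.0957, limma interval 0.07 to 0.45). *Cyp4a31* had a log2 fold change of 0.18 (SE 0.22, edgeR adjusted p = 0.626). *Plin2*, a lipid droplet coat protein, had a log2 fold change of -0.26 (SE 0.14, edgeR adjusted p = 0.205), and it was called without GF+MEV 1 (-0.40, adjusted p = 0.0130) under 1 of 18 alternatives, which reached 0.516.

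Around the peroxisome, *Pex11a*, which drives peroxisome division, rose by 0.38 (SE 0.09, edgeR adjusted p = 0.0101) without overlap, and its call was lost only with the alike livers summed (0.0513). *Slc27a2*, a very long chain acyl-CoA synthetase, rose by 0.20 (SE 0.04, edgeR adjusted p = 0.0418) without overlap. Its call was lost without any 1 of the GF+MEV livers and without GF+PBS 1, 2, 3 or 5, as well as with upper-quartile factors (0.104), with a replicate block (0.125), with the alike livers summed (0.120), and without GF+PBS 1 and 3 together (0.243). *Gm26697* overlaps it by 419 bases. *Abcd2*, a peroxisomal importer of very long chains, fell by 0.73 (SE 0.25, edgeR adjusted p = 0.0372) with overlapping groups. Its call was lost without GF+MEV 1, 2, 3 or 4 and without GF+PBS 2, 3 or 5, with the alike livers summed (0.0924), and without GF+PBS 1 and 3 together (0.0606). *Nudt19*, a peroxisomal hydrolase of CoA, fell by 0.34 (SE 0.11, edgeR adjusted p = 0.0414) with overlapping groups. Its call was lost without GF+MEV 1, 2, 3 or 4 and without GF+PBS 1, 4 or 5, and with the alike livers summed (0.105), and *B230322F03Rik* overlaps it by 938 bases. Among mitochondrial genes, *Slc22a5*, the carnitine transporter of the cell membrane, rose by 0.33 (SE 0.08, edgeR adjusted p = 0.0184) with overlapping groups, and its call was lost without GF+PBS 4 (0.0515), with the alike livers summed and without GF+PBS 1 and 3.

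**Figure D5:**
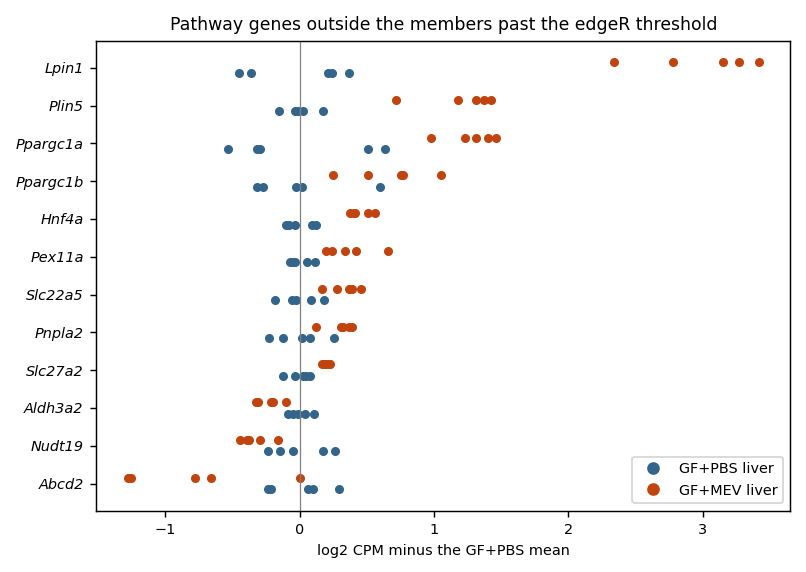
Log2 CPM minus the GF+PBS mean (horizontal axis) of each liver for the 12 pathway genes outside the list of 33 that passed the edgeR test (vertical axis), with 5 GF+PBS and 5 GF+MEV livers per gene. *Lpin1*, *Plin5* and *Ppargc1a* lie apart between the groups, while *Ppargc1b*, *Slc22a5*, *Pnpla2*, *Abcd2* and *Nudt19* overlap.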

How the data were processed

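Per the submitters' processing notes and the study's methods, reads were demultiplexed with bcl2fastq 2.17, aligned to GRCm38 with STAR 2.7.3a and counted per gene with HTSeq, and the authors deposited raw counts per Ensembl gene after removing genes with fewer than 20 counts. The strand setting and annotation release of the counting were not given in the sources used here. The table also held 5 columns that match no described sample, which were not used. Totals of 15746119 to 20523649 counts per library (mean 17381397.9) set the counting precision.

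Symbols and positions came from GENCODE on GRCm38. The 12147 of 12148 genes with at least 20 counts over the 10 libraries were tested with edgeR 4.0.16 (R 4.3.3): TMM factors, estimated dispersions, a quasi-likelihood fit with treatment as the sole term, and p-values adjusted by Benjamini-Hochberg and called under 0.05. Standard errors were taken on log2 CPM (prior count 2), and 95% intervals from limma 3.58.1 on the same scale. Single genes were also compared by exact permutation. On simulated data with 200 genes changed by 1 on the log2 scale among 12147, edgeR recovered 186 with 9 false calls and DESeq2 1.42.0 recovered 186 with 25, and with no gene changed they made 0 and 1 calls.

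The members and lists were chosen with earlier results of these data known. Named genes were all that passed the test, 16 members of the main steps, and 6 pathway genes (*Ppara*, *Rxra*, *Ppargc1a*, *Cyp4a10*, *Cyp4a14*, *Plin2*), while 2 more are not reported here. The 18 alternatives were DESeq2, RLE and upper-quartile factors, no filter, at least 10 counts in every library, a replicate block, each liver left out, the alike GF+PBS livers (1 with 3, 4 with 5) summed, and GF+PBS 1 and 3 left out. Same-numbered livers did not deviate together (correlations from -0.188 to 0.166), so the numbers were not taken as pairs. No 2 libraries of a group agreed within counting error (chi-square per gene of 6.36 to 176 over the pairs).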

Additional observations from a re-analysis of the deposited data

Results flagged for a closer look

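In 2 of 64 groups of 5 livers, 1 liver stood far from the rest by Dixon's test at 95%, where chance gives about 1 in 20 groups, or 3.2 of 64. *Crat* had 41.0 CPM in GF+MEV 4, and 55.4 to 60.2 CPM in the other GF+MEV livers (gap over range 0.750). *Acot3* had 50.8 CPM in GF+PBS 2, and between 7.39 and 19.5 CPM in the remaining 4 controls (gap over range 0.722). Neither gene passed the edgeR test.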

How the results depend on the processing

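With 18 alternatives, 764 of 882 values of single named genes kept direction and side of the threshold, 83 lost a call, 13 gained one and 22 changed sign. Of 216 counts and medians, 192 stayed within 1.5 times or the spread. Signs changed with upper-quartile factors for *Cpt2* (-0.0036), *Acadvl* (-0.010), *Acadm* (-0.025) and *Decr1* (-0.042), with at least 10 counts in every library for *Decr1* (-0.0012), and without GF+PBS 1 and 3 for *Ppara* (-0.12). With 1 liver left out, log2 fold changes ran from -0.037 to 0.045 for *Decr1*, -0.038 to 0.0060 for *Acadl*, -0.19 to 0.038 for *Acot2*, -0.0060 to 0.046 for *Acadm*, -0.16 to 0.0071 for *Cyp4a10*, -0.24 to 0.0041 for *Cyp4a14* and -0.045 to 0.22 for *Ppara*. Upper-quartile factors moved the median of all genes to -0.046 and the share of calls that were higher from 53.9% (500 of 928) to 41.2% (428 of 1040). DESeq2 called 1201 genes and 1 mitochondrial gene higher. A block on replicate number gave 792 calls, left 1 of the 32 genes higher and 0 peroxisomal genes, and *Decr1* at -0.0037. It ended the calls of *Eci2*, *Creg1*, *Slc27a2*, *Aldh3a2* and *Pnpla2*. Summing the alike livers gave 352 genes higher and 209 lower over all genes tested. It left 1 of the 32 higher and 1 lower, 0 peroxisomal genes higher, and 4 pathway genes higher and 0 lower. Leaving out GF+PBS 1 and 3 gave 382 genes higher and 386 lower over all genes tested. It left 1 of the 32 and 0 peroxisomal genes higher, and 5 pathway genes. With 1 liver left out, 1 to 2 of the 32 were higher and 1 to 6 lower, with 0 to 1 mitochondrial genes lower, 0 to 1 peroxisomal genes higher and 0 to 4 pathway genes lower. Over all genes tested, 388 to 561 were higher and 304 to 397 lower in these fits. The cause of these changes was not tested. At 15 counts in its lowest library, *Acot3* is the member that depth limits most.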

Other observations

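Marker genes of cell types not discussed with *Cd36* gave the following sums. The 6 stellate cell markers summed to 238 to 354 CPM in GF+MEV livers and 294 to 317 CPM in GF+PBS livers. None of the 6 passed the edgeR test, 1 had an unadjusted p under 0.05 and DESeq2 called 0. Of 7 B and T cell markers 4 were measured, which summed to 7.11 to 14.6 CPM and 11.5 to 15.3 CPM, and *Cd79a* and *Cd79b* fell. Of 5 biliary epithelial markers 3 were measured, which summed to 28.1 to 79.3 CPM and 23.2 to 29.7 CPM, and *Krt19* rose. Of 6 skeletal muscle markers 5 were measured, which summed to 247 to 337 CPM and 208 to 681 CPM. None of the 5 passed the edgeR test, 1 had an unadjusted p under 0.05 and DESeq2 called 0.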
